A study of Mus musculus with 12 samples.

Results

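The genes described here were 9 markers of homeostatic microglia, *P2ry12*, *P2ry13*, *Gpr34*, *Cx3cr1*, *Siglech*, *Fcrls*, *Tmem119*, *Sall1* and *Olfml3*. They were taken by gene symbol, and each was found among the 23183 symbols of every library. Male C57BL/6 mice, 7 weeks old on arrival and acclimatized for 1 week, received sham irradiation (Con, 0 Gy) or a single dose of 10 Gy of X-rays to the whole brain (IR). RNA of the cortex and of the hippocampus was sequenced 3 months later, with 3 Con and 3 IR libraries per tissue and 12 in all. The source of a library was whole tissue, so microglial RNA was measured together with that of neurons and all other cells. The question was whether the 9 genes were lower to the same extent after irradiation, or only some of them. Over both tissues *P2ry13*, *Cx3cr1* and *Siglech* fell in IR, by 0.34, 0.38 and 0.42 on the log2 scale, with adjusted p values close to the threshold. The other 6 genes did not pass the test, and their log2 differences reached from -0.28 for *Gpr34* to 0.14 for *Fcrls*.

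Microglia are the resident macrophages of the brain parenchyma. In the healthy brain they survey the tissue with motile processes and carry a set of surface receptors that set them apart from other macrophages. Many of these receptors sense signals from neurons, such as nucleotides or the chemokine fractalkine, and the expression of several of them is known to decline when microglia become activated. The set therefore gives a readout of the homeostatic state as well as of the number of microglia. In RNA from whole tissue, fewer cells and less RNA per cell cannot be told apart.

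Values were FPKM, fragments counted over the length of a transcript and the size of the library, so that levels can be compared between genes. They summed to between 359773 and 393447 per library, and a library differed from the geometric mean of the 12 by a median factor of 0.995 to 1.02. Depth in reads is unknown, because no reads or counts were used. The labels do not say whether each library came from a separate mouse or whether cortex and hippocampus came from the same mice, so that the p values measure the spread between libraries, part of which may be technical. The neuronal genes *Rbfox3*, *Snap25* and *Syt1* and the other markers of neurons summed to between 2671 and 3308 FPKM in every library. Con 1 of the hippocampus stood apart because *S100a8*, a neutrophil gene, was listed there at 382 FPKM and below 1 FPKM in the other 11 libraries. Con 3 of the hippocampus moved the calls within that tissue most, since without it the genes of the hippocampus at an adjusted p under 0.05 from limma numbered 880 in place of 4, with 0 of the 9 genes among them. IR 2 of the cortex stood apart in genes of the choroid plexus, which summed there to 443 FPKM and to between 4.81 and 31.6 FPKM in the other 5 libraries of the cortex. In the hippocampus these genes summed to 1075 FPKM in Con 2, 1669 FPKM in IR 1 and between 23.3 and 67.0 FPKM in the other 4. Their part in the values of the 9 genes was not tested.

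On GRCm38, *P2ry12*, *P2ry13*, *Fcrls* and *Olfml3* lie on chromosome 3. *P2ry12* (chr3:59216272-59262871) and *P2ry13* (chr3:59207892-59210882) are neighbours on the minus strand, and each lies inside *Med12l*, which is read from the opposite strand. *Gpr34* (chrX:13632089-13640858) lies inside *Cask* in the same way. *P2ry12* shared 9 exonic bases with *Med12l*, and *P2ry13* and *Gpr34* shared none with their hosts. *Cx3cr1* (chr9:119901616-120069879) shared 78 exonic bases, or 1.73%, with the antisense gene *Gm33858*. It also overlapped further genes without a shared exonic base, among them *Gorasp1*, *Csrnp1* and *Xirp1* on the same strand. *Fcrls* (chr3:87250758-87263738), *Olfml3* (chr3:103722222-103738001), *Siglech* (chr7:55768178-55778925), *Tmem119* (chr5:113793729-113800516) and *Sall1* (chr8:89027235-89044162) overlapped no other gene. The libraries were made with a directional kit that keeps the strand, but whether the authors' quantification used it is not given in the sources used here, so the levels of the host genes are given. *Med12l* averaged 4.08 ± 0.541 FPKM in Con and 3.99 ± 0.278 FPKM in IR in the cortex, and 4.56 ± 0.374 and 4.70 ± 0.223 FPKM in the hippocampus (SD, n = 3 each). *Cask* was 11.7 ± 0.886 and 11.1 ± 0.241 FPKM in the cortex, and 9.09 ± 0.284 and 8.92 ± 0.479 FPKM in the hippocampus.

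The 250 bases before the start site are shown for 5 of the genes, *P2ry13*, *Cx3cr1* and *Siglech*, which were lower in IR in both tissues, and *Fcrls* and *Olfml3*, which were not. The sequences are those of RefSeq on GRCm38.p6. Windows were at hand here for 7 of the 9 genes, and not for *Tmem119* and *Gpr34*. Each is written from 5′ to 3′ on the strand of the gene. Capitals mark GAGGAA, the core letters of the sites of PU.1, the ETS factor that microglia and other macrophages need, and GGAAGT, a core of other ETS sites, on either strand. The reverse complements of these letters are TTCCTC and ACTTCC. The windows lie at chr3:59210883-59211132 for *P2ry13*, chr9:120068297-120068546 for *Cx3cr1*, chr7:55767934-55768183 for *Siglech*, chr3:87263525-87263774 for *Fcrls* and chr3:103738002-103738251 for *Olfml3*. All lie on the minus strand except that of *Siglech*.
P2ry13: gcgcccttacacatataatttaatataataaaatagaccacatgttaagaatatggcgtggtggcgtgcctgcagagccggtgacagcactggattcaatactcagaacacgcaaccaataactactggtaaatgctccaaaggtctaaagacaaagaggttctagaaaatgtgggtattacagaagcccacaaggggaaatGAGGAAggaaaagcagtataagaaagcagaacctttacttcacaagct
Cx3cr1: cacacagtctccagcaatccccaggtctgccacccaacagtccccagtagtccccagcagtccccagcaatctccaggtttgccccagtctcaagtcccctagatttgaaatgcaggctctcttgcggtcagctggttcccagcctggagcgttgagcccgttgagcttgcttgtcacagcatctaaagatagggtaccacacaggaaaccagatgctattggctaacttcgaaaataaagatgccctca
Siglech: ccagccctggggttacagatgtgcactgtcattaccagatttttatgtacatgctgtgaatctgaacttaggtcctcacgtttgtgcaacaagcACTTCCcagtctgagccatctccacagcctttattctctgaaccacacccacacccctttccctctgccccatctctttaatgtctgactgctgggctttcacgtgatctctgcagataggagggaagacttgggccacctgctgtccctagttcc
Fcrls: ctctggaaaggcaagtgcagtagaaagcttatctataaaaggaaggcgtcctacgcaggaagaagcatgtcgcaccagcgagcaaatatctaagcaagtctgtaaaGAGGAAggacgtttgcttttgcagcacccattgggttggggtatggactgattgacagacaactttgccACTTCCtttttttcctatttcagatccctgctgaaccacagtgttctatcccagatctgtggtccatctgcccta
Olfml3: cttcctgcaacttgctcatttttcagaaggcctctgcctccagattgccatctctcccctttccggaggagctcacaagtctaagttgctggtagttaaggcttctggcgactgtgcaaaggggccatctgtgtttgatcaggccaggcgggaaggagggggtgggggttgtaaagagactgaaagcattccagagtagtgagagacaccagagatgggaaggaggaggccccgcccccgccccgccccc
GAGGAA was found in 2 of the 7 genes with a window, at -48 in *P2ry13* and at -144 in *Fcrls*, where -1 is the base before the start. Over all genes of the table, 25.9% held it in a window. GGAAGT was found in 4 of the 7, in *P2ry12* at -51, in *Siglech* at -156 on the reverse strand, in *Fcrls* at -75 on the reverse strand and in 1 of the 3 windows of *Sall1*, against 22.2% of all genes. The windows of *Cx3cr1* and *Olfml3* held neither. A match of letters is a description and not a binding site.

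In Con, the levels of the 9 genes were of the same order in the cortex and the hippocampus. *Cx3cr1* and *P2ry12* were the most abundant, at 14.3 ± 0.796 and 12.5 ± 1.52 FPKM in cortex libraries and 13.9 ± 1.38 and 14.3 ± 0.885 FPKM in hippocampus libraries (SD, n = 3), and their libraries overlapped in each tissue. *Tmem119*, *Fcrls* and *Olfml3* followed between 7.03 and 9.53 FPKM on average. *Gpr34*, *Siglech*, *Sall1* and *P2ry13* were the lowest, between 3.90 and 5.86 FPKM on average. Among these 4, the libraries of *Gpr34* lay above those of the other 3 in the cortex but overlapped with those of *Sall1* and *P2ry13* in the hippocampus. Between the tissues in Con, no gene of the 9 differed at a Benjamini-Hochberg adjusted p under 0.05 from limma, the linear model fitted across all genes, whereas 36.3% of the 14169 genes tested did. At an unadjusted p under 0.05, 1 of the 9 did, *Olfml3*, at a log2 difference of 0.22 towards the hippocampus (adjusted p = 0.109), against 45.7% of all genes. The Con libraries of the tissues did not overlap for 3 of the 9 genes and for 49.8% of all genes. Tissue and a possible processing run cannot be told apart, since the files of the tissues carry different endings.

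The purinergic receptors *P2ry12* and *P2ry13* had lower means after irradiation in each tissue. P2RY12 senses ADP and drives the movement of microglial processes towards injury. In the cortex *P2ry12* was 13.9, 10.9 and 12.7 FPKM in Con 1, 2 and 3 and 11.5, 11.5 and 9.78 FPKM in IR 1, 2 and 3. In the hippocampus it was 13.3, 14.7 and 15.0 FPKM in Con and 11.7, 12.2 and 10 FPKM in IR. Con 2 lay within the range of the IR libraries of the cortex, while in the hippocampus all IR libraries lay below all Con libraries. The mean was lower in IR by 12.3% (cortex) and 21.2% (hippocampus), and the log2 differences of -0.17 and -0.32 had adjusted p values of 0.451 and 0.257.

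*P2ry13* encodes another ADP receptor, which is known to restrain microglial activation. In the cortex it was 4.46, 3.86 and 4.23 FPKM in Con and 3.28, 3.39 and 2.59 FPKM in IR. In the hippocampus it was 4.31, 4.98 and 4.27 FPKM in Con and 3.17, 3.32 and 3.67 FPKM in IR. All IR libraries lay below all Con libraries in each tissue, with a mean that was 26.2% (cortex) and 25.0% (hippocampus) lower. The log2 differences on the scale of log2(FPKM + 1), which understates changes of low genes, were -0.35 (95% interval -0.57 to -0.13, adjusted p = 0.177 from limma) and -0.33 (-0.53 to -0.13, adjusted p = 0.256).

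*Gpr34* encodes a receptor for lysophosphatidylserine. In the cortex it was 6.13, 5.33 and 6.11 FPKM in Con and 3.31, 5.32 and 3.81 FPKM in IR. IR 2 lay just under the lowest Con library, and IR 1 and IR 3 lay well under it. In the hippocampus the values were 4.23, 5.28 and 5.27 FPKM in Con and 4.17, 5.15 and 3.93 FPKM in IR, and the groups overlapped. The log2 differences were -0.43 (-0.72 to -0.14, adjusted p = 0.195) and -0.13 (-0.39 to 0.13, adjusted p = 0.607), and the difference between them was 0.30 (-0.11 to 0.71, adjusted p = 0.591 for the interaction in limma).

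*Cx3cr1*, the receptor of fractalkine, through which neurons hold microglia in check, was lower in every IR library. It measured 15.0, 14.5 and 13.4 FPKM in Con and 10.5, 12.8 and 9.68 FPKM in IR of the cortex. The hippocampal values were 15.4, 13.1 and 13.01 FPKM in Con and 8.93, 10.7 and 11.1 FPKM in IR. The groups did not overlap in either tissue, and the mean was lower by 23.2% (cortex) and 26.3% (hippocampus). The log2 differences were -0.36 (-0.57 to -0.15, adjusted p = 0.135) and -0.41 (-0.63 to -0.18, adjusted p = 0.247).

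*Siglech*, a sialic acid-binding lectin of microglia, had the lowest ratio of IR to Con in the hippocampus among the 9 genes. In the cortex it was 4.53, 4.36 and 4.31 FPKM in Con and 2.78, 4.24 and 2.45 FPKM in IR. Its hippocampal values were 3.74, 3.89 and 4.06 FPKM in Con and 2.39, 2.88 and 2.67 FPKM in IR. The Con libraries were tight (SD 0.113 and 0.162 FPKM), and IR 2 of the cortex was the single IR library close to them. The mean was lower by 28.3% (cortex) and 32.2% (hippocampus), with log2 differences of -0.40 (-0.71 to -0.09, adjusted p = 0.250) and -0.43 (-0.63 to -0.23, adjusted p = 0.216).

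*Fcrls*, an Fc receptor-like gene of microglia, had overlapping values. In the cortex it was 7.43, 8.36 and 8.76 FPKM in Con and 8.14, 8.44 and 7.50 FPKM in IR. Its values in the hippocampus were 7.07, 5.69 and 8.34 FPKM in Con and 9.64, 8.27 and 8.58 FPKM in IR. The groups overlapped in both tissues, in the hippocampus because Con 3 lay above IR 2. The hippocampal mean was 25.5% higher in IR, with a log2 difference of 0.30 (0.02 to 0.59, unadjusted p = 0.0399, adjusted p = 0.346 from limma), against -0.02 (-0.20 to 0.15) in the cortex. With 1 library left out the hippocampal difference lay between 0.18, without Con 2, and 0.42, without Con 3. The difference between the tissues of 0.32 had an adjusted p of 0.491. The 10 markers of macrophages at the borders of the brain summed to 3.49 to 5.75 FPKM in Con and 5.43 to 9.50 FPKM in IR of the hippocampus, and to 5.93 to 6.45 and 4.49 to 5.92 FPKM in the cortex. *Mrc1*, the mannose receptor, averaged 0.362 ± 0.220 FPKM in Con and 1.03 ± 0.343 FPKM in IR of the hippocampus, and the defining *Cd163*, which did not pass the filter, was 0.235 ± 0.0430 and 0.140 ± 0.0694 FPKM there. Their part in the value of *Fcrls* was not tested.

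*Tmem119*, a transmembrane protein used to tell microglia from other macrophages, had overlapping groups in the cortex, at 9.04, 9.77 and 7.32 FPKM in Con and 7.91, 9.40 and 6.69 FPKM in IR. In the hippocampus it was 10.4, 8.64 and 8.32 FPKM in Con and 7.43, 7.88 and 7.35 FPKM in IR, so that all IR libraries lay below. The log2 differences were -0.11 (-0.39 to 0.17) and -0.24 (-0.44 to -0.03), with adjusted p values of 0.737 and 0.327.

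*Sall1*, a zinc finger transcription factor that maintains microglial identity, overlapped fully in both tissues. It was 4.09, 3.49 and 4.99 FPKM in Con and 4.27, 4.57 and 3.60 FPKM in IR of the cortex, and 4.13, 4.11 and 5.40 FPKM in Con and 4.58, 4.18 and 4.44 FPKM in IR of the hippocampus. The log2 differences were -0.01 (-0.27 to 0.26) and -0.03 (-0.27 to 0.21). The estimates for *Siglech*, -0.40 and -0.43, lay outside these intervals, but its own intervals (-0.71 to -0.09 and -0.63 to -0.23) overlapped with them. A difference between the genes was not tested. *Olfml3*, a secreted olfactomedin-like protein, was 8.38, 8.78 and 6.97 FPKM in Con and 8.18, 9.79 and 9.64 FPKM in IR of the cortex. In the hippocampus it was 10.3, 9.42 and 8.90 FPKM in Con and 8.96, 10.3 and 9.55 FPKM in IR. Its log2 differences were 0.18 (-0.04 to 0.39) and 0.01 (-0.17 to 0.19), and the groups overlapped in each tissue.

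**Figure D1:**
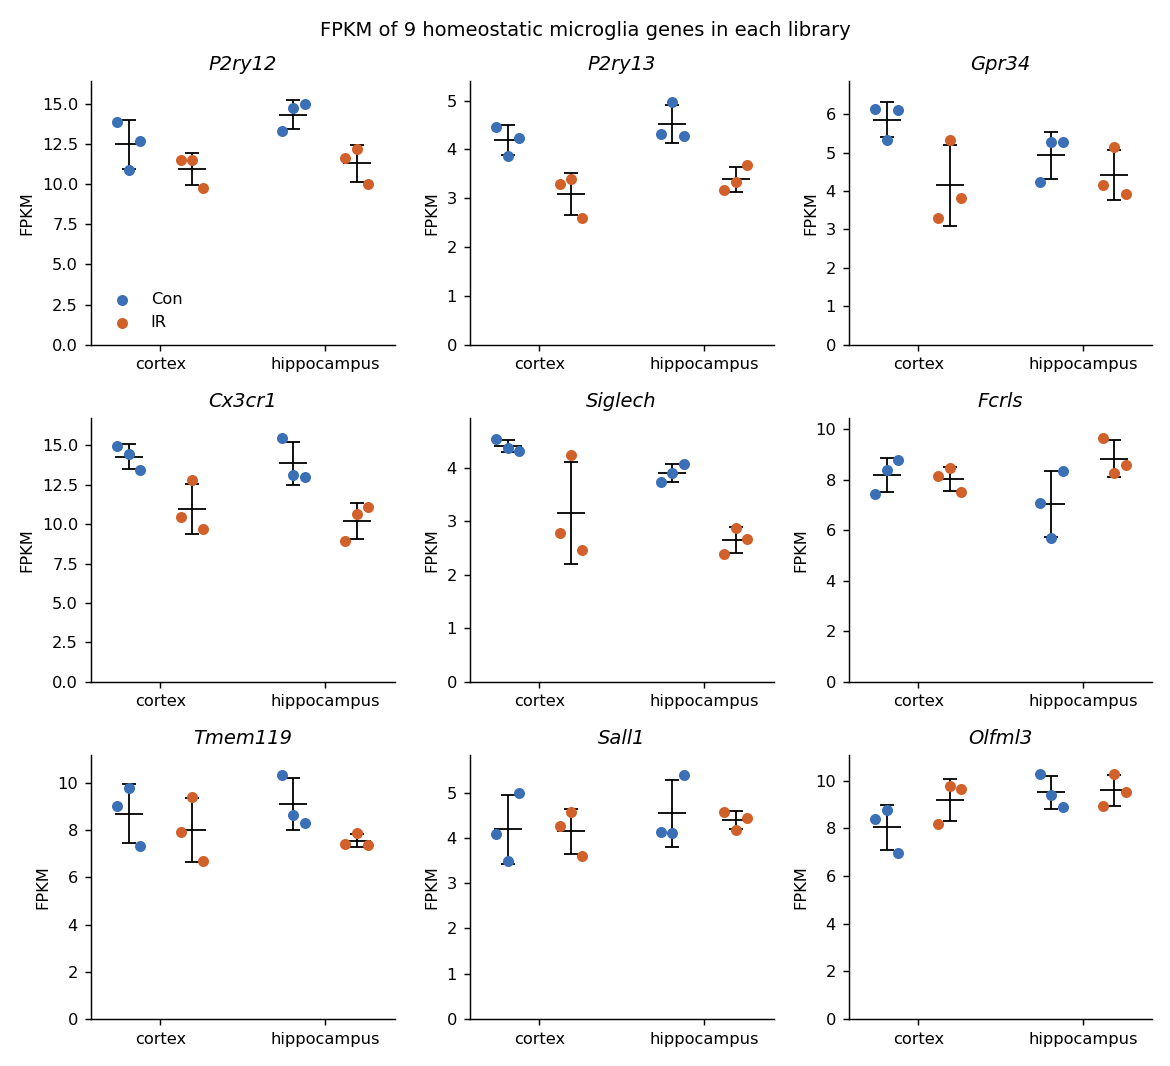
FPKM of each of the 9 genes in the 12 libraries, by tissue, with Con in blue and IR in orange, each axis starting at 0. Points are libraries, the long bar is the mean and the whiskers are 1 SD (n = 3). The orange points of *P2ry13*, *Cx3cr1* and *Siglech* lie below the blue points in both tissues, while those of *Sall1* and *Olfml3* overlap with them.

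Within a tissue, no gene of the 9 reached an adjusted p under 0.05 from limma, which 0.725% of the 14065 genes tested in the cortex and 0.0285% of the 14043 in the hippocampus did. In the cortex, 4 of the 9 were lower in IR at an unadjusted p under 0.05, against 5.94% of all genes tested, and 0 were higher, against 8.16%. In the hippocampus, 5 were lower at that p, against 6.89% of all genes, and *Fcrls* was higher, against 7.06%. No gene reached a fold of 1.5 with an unadjusted p under 0.05, which 0.0924% of all genes did downwards in the cortex and 0.285% in the hippocampus. All IR libraries lay below all Con libraries for 4 of the 9 in the cortex (*P2ry13*, *Gpr34*, *Cx3cr1* and *Siglech*) and for 5 in the hippocampus (*P2ry12*, *P2ry13*, *Cx3cr1*, *Siglech* and *Tmem119*). Over all genes tested this was the case for 9.09% and 9.36%. In both tissues at once it held for *P2ry13*, *Cx3cr1* and *Siglech*, 3 of the 9, against 1.5% of the 13649 genes tested in both. The exact permutation test (2-sided) gave p = 0.1 for each of these genes in these tissues, the smallest value that 3 libraries against 3 allow.

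Over all 12 libraries, with the tissue as a term of the model, *P2ry13*, *Cx3cr1* and *Siglech* fell. These 3 of the 9 had an adjusted p under 0.05 downwards, as had 0.398% of the 14577 genes tested. The log2 difference was -0.34 for *P2ry13* (95% interval -0.48 to -0.20, adjusted p = 0.0288 from limma), -0.38 for *Cx3cr1* (-0.54 to -0.23, adjusted p = 0.0267) and -0.42 for *Siglech* (-0.60 to -0.23, adjusted p = 0.0368). *P2ry12* at -0.25 (-0.40 to -0.10, adjusted p = 0.0948) and *Gpr34* at -0.28 (-0.50 to -0.07, adjusted p = 0.173) had an unadjusted p under 0.05 only, which gave 5 of 9 lower at that p against 8.41% of all genes. *Tmem119* was at -0.17 (-0.35 to 0.004, adjusted p = 0.296) and *Sall1* at -0.02 (-0.19 to 0.15). *Fcrls* was at 0.14 (-0.04 to 0.32) and *Olfml3* at 0.09 (-0.05 to 0.24). Differences between genes were not tested. The adjusted p values lay close to the threshold. With 1 library left out, that of *P2ry13* rose to at most 0.0715, that of *Cx3cr1* to at most 0.0749 and that of *Siglech* to at most 0.0888. No gene of the 9 passed when Con 1, IR 1 or IR 3 of the cortex or IR 1 or IR 3 of the hippocampus was left out, and 1 passed without Con 3 of the cortex or Con 2 of the hippocampus. The log2 differences of the 3 genes stayed between -0.50 and -0.30 throughout. Without Con 1 of the hippocampus, the library with *S100a8*, 2 passed, and *Siglech* was at -0.42 with an adjusted p of 0.0581.

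**Figure D2:**
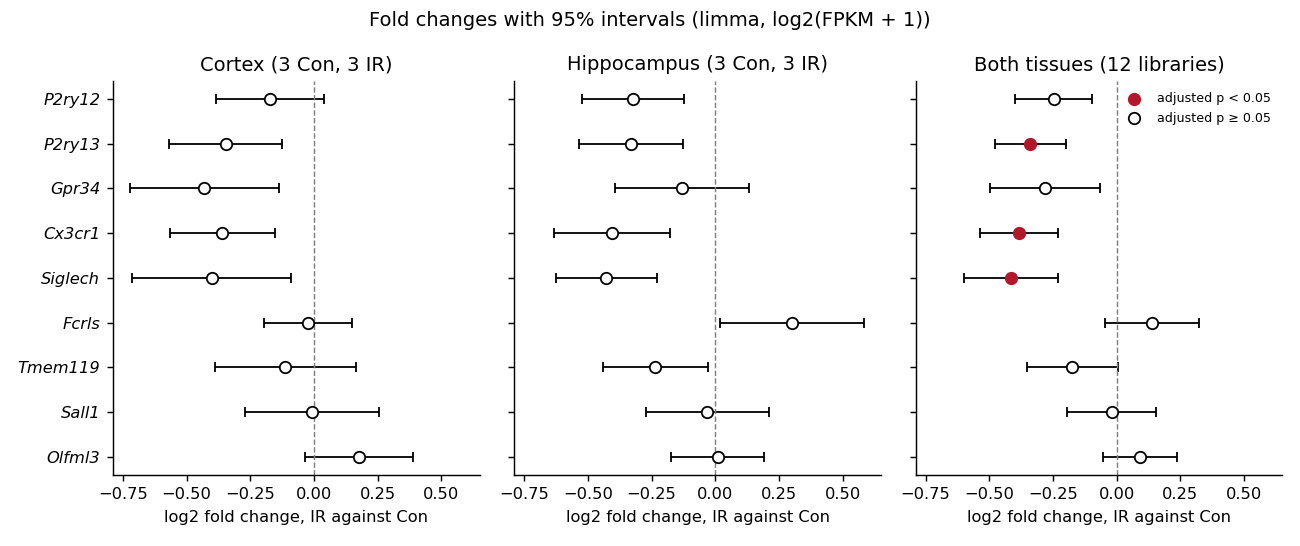
Log2 fold changes of IR against Con on the scale of log2(FPKM + 1) with 95% intervals from limma, in the cortex, the hippocampus and over both tissues. Filled red points mark an adjusted p under 0.05, which *P2ry13*, *Cx3cr1* and *Siglech* reached over both tissues and no gene reached within a tissue.

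The difference between the tissues in the effect of irradiation was tested as an interaction. None of the 9 genes had an interaction with an adjusted p under 0.05 in limma, and 0 of 9 had an unadjusted p under 0.05, against 0.0823% and 10.3% of all genes. The largest interactions were those of *Fcrls* (0.32, unadjusted p = 0.0528) and *Gpr34* (0.30). With 1 library left out, that of *Fcrls* lay between 0.20 and 0.44 and that of *Gpr34* between 0.18 and 0.46. For *P2ry13*, *Cx3cr1* and *Siglech* the interactions were 0.02, -0.05 and -0.03, with 95% intervals of -0.27 to 0.30, -0.36 to 0.27 and -0.41 to 0.35.

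If the 9 genes were reduced alike, their ratios to Con would be equal within a library apart from the spread between libraries. The Con ratios understate that spread, because each Con library is part of the mean it is divided by. The ratios were not tested. In the IR libraries of the hippocampus, the median ratio of the 9 genes to their Con means was 0.816, 0.865 and 0.808. Within IR 1, the ratios reached from 0.612 for *Siglech* to 1.37 for *Fcrls*. In IR 2 they reached from 0.735 for *P2ry13* to 1.18 for *Fcrls*, and in IR 3 from 0.684 for *Siglech* to 1.22 for *Fcrls*. Among the Con libraries of the hippocampus, single genes ranged from 0.809 to 1.19. In the cortex the median ratio was 0.908, 0.964 and 0.768 in IR 1, 2 and 3, so that IR 2 was nearest to Con. There the ratios reached from 0.565 for *Gpr34* to 1.02 for *Sall1* in IR 1, from 0.810 for *P2ry13* to 1.22 for *Olfml3* in IR 2 and from 0.557 for *Siglech* to 1.20 for *Olfml3* in IR 3. Single genes ranged from 0.833 to 1.19 among the Con libraries of the cortex, a span close to that of IR 2. Without IR 2, the log2 differences in the cortex were -0.58 for *Siglech* and -0.59 for *Gpr34* and -0.07 for *Sall1*.

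**Figure D3:**
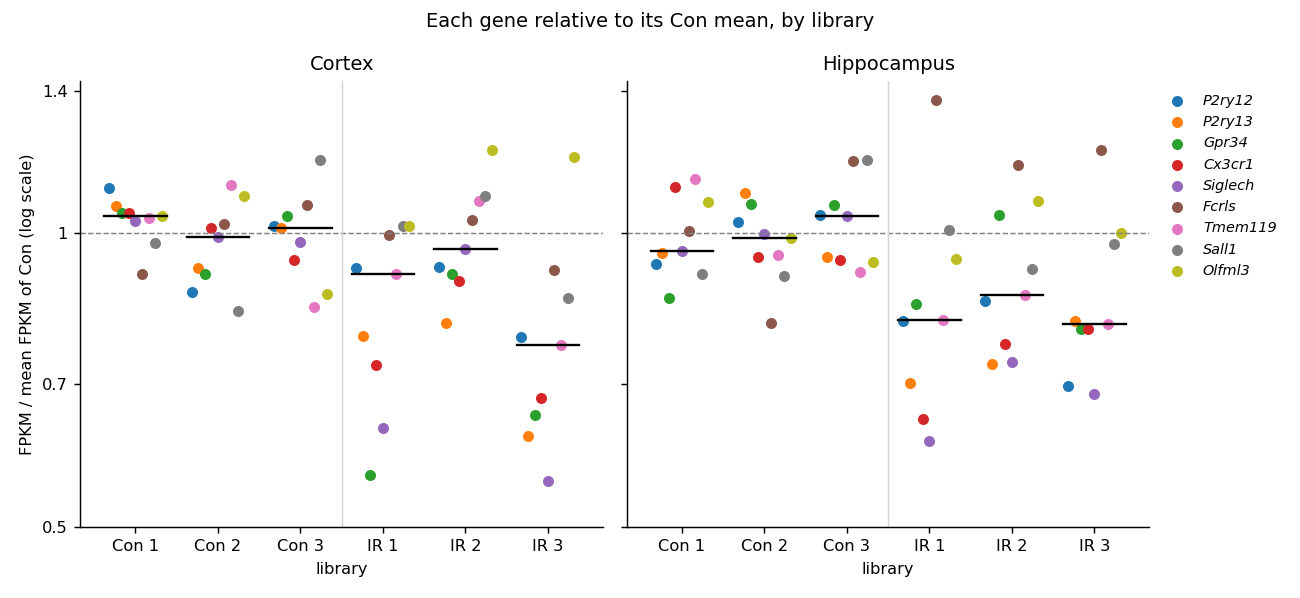
Ratio of the FPKM of each gene to its mean in Con of the same tissue, on a log axis, for each library, with a bar at the median of the 9 genes. In IR the points of *Siglech*, *Cx3cr1*, *P2ry13* and *P2ry12* lie under the dashed line at 1 in all 6 libraries, and those of *Fcrls* in the hippocampus and *Olfml3* in the cortex lie above it.

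Each gene was also set against the geometric mean of the other 8. *Siglech* was lower than the others by 0.33 (log2) more in IR than in Con in the cortex and by 0.40 in the hippocampus, without overlap of the libraries in either tissue. *Gpr34* at -0.34 and *Cx3cr1* at -0.18 did not overlap in the cortex only. *Olfml3* was higher relative to the others, by 0.47 in the cortex and 0.25 in the hippocampus, without overlap in either. *Fcrls* was higher by 0.62 in the hippocampus without overlap and by 0.22 in the cortex with overlap. *P2ry12*, *P2ry13*, *Tmem119* and *Sall1* overlapped with Con on this scale in both tissues. These are relative values, in which a lower level of some genes raises the others, and they have no test.

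Across the 12 libraries, after the mean of the tissue was removed, *Siglech* followed the mean of the other 8 genes most closely, with a Pearson r of 0.975. *Cx3cr1* had 0.841, *P2ry13* 0.787, *Gpr34* 0.728, *P2ry12* 0.707 and *Tmem119* 0.627. *Sall1* had 0.213, and *Olfml3* and *Fcrls* had -0.318 and -0.367. The 12 points share the group difference, so these values describe the pattern and were not tested. With the mean of each group removed as well, *Siglech* had 0.947, *Cx3cr1* 0.593, *Gpr34* 0.580, *Tmem119* 0.436, *P2ry13* 0.419 and *P2ry12* 0.389, and without the 2 libraries farthest from the median *Cx3cr1* had 0.019 and *P2ry13* -0.337. Of 12460 genes with a mean of at least 1 FPKM in each tissue, the closest to the mean of the 9 was *Csf1r* (r = 0.958, Spearman rho 0.930, and 0.948 without the 2 libraries farthest from the median). With the group means removed its r was 0.897, which was no longer the closest, and 0.537 without the 2 farthest libraries. *Csf1r* encodes the receptor whose signal microglia need to survive. Others among the 10 closest were *Hkdc1* (0.910), *2410002F23Rik* (0.901), *Sun2* (0.900), *Dync2li1* (0.892), *Slc52a2* (0.890), *Ankrd28* (0.885), *Vps25* (0.883) and *Mpeg1* (0.872), the last a macrophage gene.

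*Csf1r* had a larger log2 difference than any of the 9. It was 21.1, 20.4 and 19.8 FPKM in Con and 8.84, 18.0 and 8.89 FPKM in IR of the cortex. The hippocampal values were 22.3, 20.5 and 24.1 FPKM in Con and 12.03, 11.7 and 12.2 FPKM in IR. IR 2 of the cortex, the library with the choroid plexus genes, stood near Con here too, and the other 5 IR libraries lay well below. *Csf1r* fell over both tissues by 0.82 on the log2 scale (95% interval -1.11 to -0.54, adjusted p = 0.0208) and in the hippocampus by 0.84 (adjusted p = 0.0126), and the cortical difference was -0.80 (adjusted p = 0.276). Left out 1 at a time, the libraries put its adjusted p over both tissues at up to 0.0606, above 0.05 without Con 1 or IR 1 of the cortex or IR 1 or IR 3 of the hippocampus. In the hippocampus alone it lost the call without Con 1 (adjusted p = 0.0571) or any of the IR libraries (up to 0.230), with the replicate block (0.144) and in a single fit of all 12 libraries (0.0748).

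A list of 15 further homeostatic genes was counted over both tissues, 14 of them tested. Of the 14 genes, 11 were lower and 3 higher, while 7531 of all 14577 genes tested were lower. At an unadjusted p under 0.05, 7 were lower, against 8.41% of all genes. The median log2 difference was -0.15, against -0.25 for the 9 genes and -0.004 for all genes tested. *Lag3*, an inhibitory receptor, was at -0.42 (adjusted p = 0.0932), and *Tgfbr1*, a receptor of TGF-beta, was at -0.21 (adjusted p = 0.0995).

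Genes that microglia share with other macrophages were lower in 17 of 18 over both tissues (all genes 7531 of 14577), with a median log2 difference of -0.12. At an unadjusted p under 0.05, 7 were lower, against 8.41% of all genes. At an adjusted p under 0.05, 2 were lower, against 0.398%. The second beside *Csf1r* was *Trem2*, a lipid-sensing receptor, at -0.41 (adjusted p = 0.0398). It averaged 8.72 ± 0.470 FPKM in Con and 6.45 ± 0.0361 FPKM in IR of the cortex and 7.88 ± 2.02 and 5.40 ± 0.297 FPKM in the hippocampus (SD, n = 3). In the cortex *Trem2* had an adjusted p of 0.0396. The call over both tissues held only when Con 2 or Con 3 of the hippocampus was left out and was lost in the other 10 cases (adjusted p up to 0.0888), among them that without Con 1 of the hippocampus (-0.35, adjusted p = 0.0584). That in the cortex was lost in 5 of 6 cases (up to 0.163), that without Con 1 being the exception. It was also lost with the replicate block (0.0857) and in a single fit of all 12 libraries (0.248). *Ctss*, a lysosomal protease, was at -0.42 (adjusted p = 0.0628). Of the 3 chains of complement C1q, *C1qc* was 28.9 ± 2.05 and 25.65 ± 0.871 FPKM in Con and IR of the cortex and 29.9 ± 2.28 and 26.2 ± 0.771 FPKM in the hippocampus, with all IR libraries below all Con libraries in both tissues (-0.17 over both, adjusted p = 0.0877). *C1qa* and *C1qb* overlapped in both tissues and were at -0.11 and -0.07 over both (adjusted p = 0.581 and 0.608). These genes and *Tyrobp* were chosen after their values were seen. *Tyrobp*, the adaptor of *Trem2*, was 15.6 ± 2.63 and 15.7 ± 1.11 FPKM in the cortex and 15.7 ± 1.84 and 14.9 ± 1.63 FPKM in the hippocampus.

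Of 9 tested transcription factors of microglia, 3 were lower and 1 higher over both tissues at an unadjusted p under 0.05. Over all genes the shares were 8.41% and 9.12%, and none of these factors had an adjusted p under 0.05. *Irf8* was at -0.21 (adjusted p = 0.169) and *Mef2c*, which neurons express at far higher levels, at -0.17 (adjusted p = 0.159). *Smad3*, which carries the TGF-beta signal, was at 0.12 (adjusted p = 0.256). *Spi1*, which encodes PU.1, was 2.46 ± 0.856 and 1.95 ± 0.318 FPKM in the cortex and 2.15 ± 0.533 and 2.03 ± 0.0759 FPKM in the hippocampus. Of 18 genes known to rise in microglia around lesions, 10 were tested over both tissues, with none at an adjusted p under 0.05. At an unadjusted p under 0.05, 0 were lower and 1 was higher, against 8.41% and 9.12% of all genes. That gene was *Lyz2*, a lysozyme also made by other myeloid cells, at 2.23 ± 0.750 FPKM in Con and 7.08 ± 2.62 FPKM in IR of the hippocampus and 3.70 ± 0.706 and 4.54 ± 0.444 FPKM in the cortex (adjusted p = 0.0991 over both tissues). In the hippocampus 2 of 10 were higher and 0 lower at an unadjusted p under 0.05, again with none at an adjusted p under 0.05. The second was *Spp1*, which encodes osteopontin, at 1.09 ± 0.154 FPKM in Con and 1.87 ± 0.379 FPKM in IR without overlap (log2 difference 0.45, adjusted p = 0.257). The interactions of *Lyz2* and *Spp1* were 1.057 and 0.60 (adjusted p = 0.297 and 0.318).

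Ligands and cues of microglia were the last group. *Cx3cl1*, the ligand of *Cx3cr1* made by neurons, rose in the cortex, where it was 221, 217 and 218 FPKM in Con and 292, 272 and 269 FPKM in IR (log2 difference 0.34, adjusted p = 0.0218). Its hippocampal values were 149, 158 and 190 FPKM in Con and 172, 176 and 186 FPKM in IR, with overlap. The call in the cortex was lost without Con 3 or any of the IR libraries (adjusted p up to 0.134). It was also lost with the replicate block (0.0539) and in a single fit of all 12 libraries (0.0870). *Il34*, a neuronal ligand of *Csf1r*, averaged 16.5 ± 0.907 FPKM in Con and 23.9 ± 0.543 FPKM in IR of the hippocampus and 26.2 ± 0.848 and 26.4 ± 0.853 FPKM in the cortex. Its interaction was 0.50 (adjusted p = 0.0364), a call that was lost in 11 of the 12 fits with 1 library left out (adjusted p up to 0.147) and kept without Con 3 of the hippocampus alone. *Csf1*, the other ligand, was at 0.19 over both tissues (adjusted p = 0.119), and *Tgfb1*, which sustains the homeostatic program, at -0.23 (adjusted p = 0.167).

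Markers of other cells were counted as a measure of tissue composition. Over both tissues, neuronal genes were lower in 5 of 8, astrocyte genes in 7 of 8, oligodendrocyte genes in 6 of 8 and oligodendrocyte precursor genes in 4 of 8. Their median log2 differences were -0.05, -0.06, -0.04 and -0.002. Of all 14577 genes tested, 7531 were lower. Oligodendrocyte genes were higher in 7 of 8 in the cortex (median 0.15), 3 at an unadjusted p under 0.05, against 8.16% of all genes. In the hippocampus they were lower in 6 of 8 (median -0.23), 3 at that p, against 6.89%. Their interaction was below 0 in 8 of 8, 4 at that p, against 5.58%, and 0 at an adjusted p under 0.05. Astrocyte genes were lower in 7 of 8 in the hippocampus, with a median of -0.11. At an unadjusted p under 0.05, 3 were lower, against 6.89% of all genes. Endothelial genes were higher in 6 of 8 over both tissues with a median of 0.14, 4 of them at an unadjusted p under 0.05, against 9.12% of all genes. *Cldn5*, a tight junction gene, rose by 0.46 (adjusted p = 0.0231, up to 0.0683 without IR 1 of the cortex or IR 1 of the hippocampus). The endothelial genes summed to 83.7 to 97.9 FPKM in Con and 99.9 to 115 FPKM in IR of the cortex, and to 72.6 to 81.4 and 89.0 to 91.5 FPKM in the hippocampus. The part of these shifts in the values of the 9 genes was not tested.

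**Figure D4:**
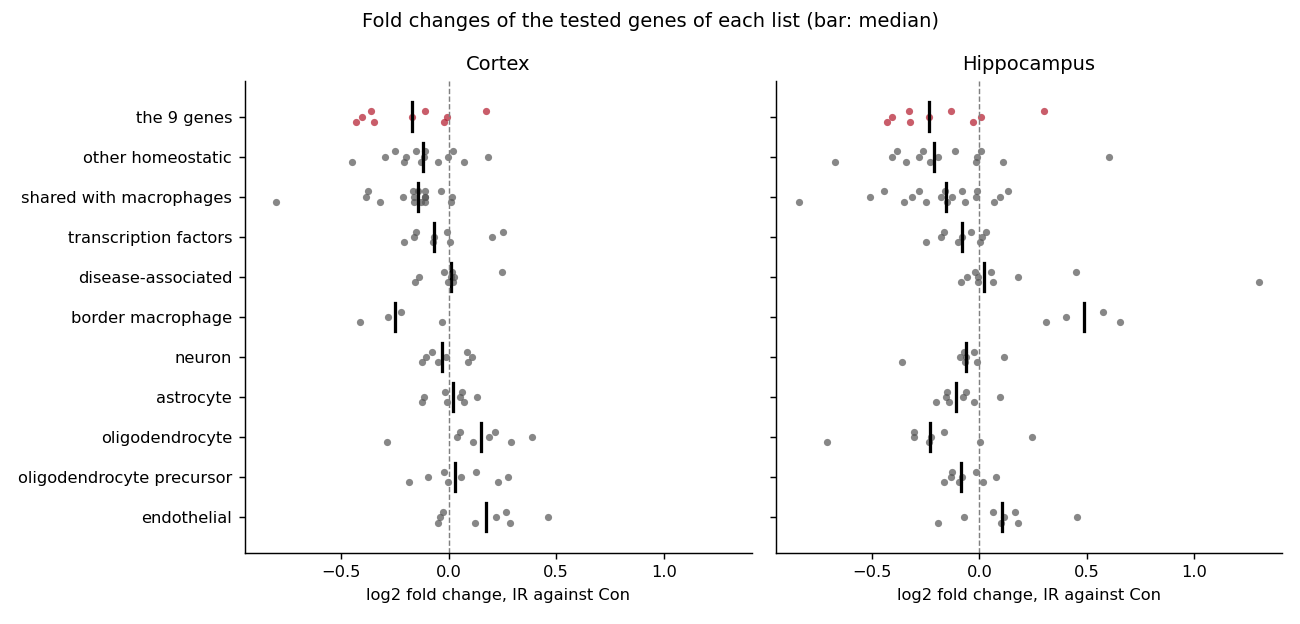
Log2 fold changes of IR against Con in the cortex and the hippocampus for the tested genes of each list, on the scale of log2(FPKM + 1), with a bar at the median. The 9 homeostatic genes, in red, have medians of -0.17 and -0.24 and reach from -0.43 to 0.18 in the cortex and from -0.43 to 0.30 in the hippocampus.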

How the data were processed

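FPKM values of 12 libraries, deposited by the authors, were used as given. Per the paper's methods, the authors removed adapters with FASTX_Trimmer and BBMap, mapped reads with TopHat, estimated FPKM in Cufflinks and normalized geometrically in edgeR, and the submitters' processing notes name the build mm10. Whether RNA was extracted with Trizol and used as total RNA (labels) or extracted with a column kit and selected for poly(A) (methods) is not settled here. Depth in reads is unknown, so no interval for counting error is given.

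Libraries were grouped from their labels. A gene entered a fit when 3 or more of its libraries reached 0.5 FPKM, as all 9 genes did. Log2(FPKM + 1) was modelled with limma 3.58.1 in R 4.3.3, with a trend and a robust prior, in each tissue, over both tissues with tissue as a term, with an interaction, and between the tissues in Con. P values were adjusted over all genes tested. The fit was run on simulated data as a check of the code, and no result is drawn from it here. Exact permutation tests were run per gene. A gene set test was not run.

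The 9 genes, the other gene lists and the tests were chosen with earlier results of these data known. Named beside the 9 are genes of the lists with an adjusted p under 0.05, the 3 genes of a list with the smallest p over both tissues, defining markers, and the 10 genes with the highest r. *C1qa*, *C1qb*, *C1qc*, *Tyrobp*, *Spi1*, *Cd163*, *Med12l* and *Cask* were named after their values were seen. Some single genes that this rule names are not reported here. Positions came from GENCODE M21 and promoters from RefSeq. Alternatives were a pseudocount of 0.1, no filter, a minimum of 1 FPKM throughout, median of ratios scaling, quantile normalization, limma without trend or robust prior, the library number as a block, all 12 libraries in a single fit, the ratio of group means, and each library left out. For genes beside the 9 they were added after seeing the data. Python 3.11.15 with matplotlib 3.10.9 drew the figures.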

Additional observations from a re-analysis of the deposited data

Results flagged for a closer look

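For *Il34*, a neuronal ligand of *Csf1r*, the interaction of irradiation with tissue was 0.50 on the log2 scale with an adjusted p of 0.0364 from limma. This adjusted p was 0.0561 without a filter and 0.0844 without trend or robust prior, and reached from 0.00696 to 0.147 with 1 library left out, so that the call was lost in 11 of 12 such fits and kept without Con 3 of the hippocampus alone (without Con 1, the library with high *S100a8*, 0.0854). *Mrc1*, a gene of border macrophages, lay lower in all IR libraries of the cortex (0.598 to 0.720 FPKM, Con 0.811 to 1.03) and higher in all IR libraries of the hippocampus (0.695 to 1.38 FPKM, Con 0.173 to 0.603), a difference between the tissues of 0.79 (adjusted p = 0.203 from limma). None of the 9 homeostatic genes met either condition.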

How the results depend on the processing

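No alternative within a tissue brought any of the 9 genes to an adjusted p under 0.05. Over both tissues, 2 or 3 of the 9 passed under the filters, pseudocount, scalings, moderation and block, *Siglech* missing it without a filter (adjusted p = 0.0577). Leaving out each library in turn gave 0 to 3 genes over both tissues and a median of the 9 in the cortex of -0.26 to -0.10. For the interaction it gave 0 to 1 genes at an unadjusted p under 0.05 and a median of -0.12 to 0.058. Between the tissues in Con it gave 0 to 2 genes unadjusted, 0 to 1 adjusted and a median of -0.047 to 0.089. That unadjusted count was 1 and became 0 with no filter, a pseudocount of 0.1, median of ratios scaling, quantile normalization or no trend or robust prior. The direction changed only for small differences and only with a library left out. In the cortex *Fcrls* reached from -0.083 to 0.022 and *Sall1* from -0.11 to 0.10, in the hippocampus *Sall1* from -0.086 to 0.076 and *Olfml3* from -0.037 to 0.059, and over both tissues *Sall1* from -0.065 to 0.030. The interaction reached from -0.073 to 0.076 for *P2ry13*, from -0.12 to 0.058 for *Cx3cr1*, from -0.15 to 0.15 for *Siglech* and from -0.13 to 0.083 for *Sall1*, and the difference between the tissues in Con from -0.0095 to 0.21 for *Sall1* and from -0.047 to 0.14 for *Tmem119*. Without a change of direction, left-out libraries put *Tmem119* between -0.22 and -0.004 in the cortex and between -0.29 and -0.15 in the hippocampus. *P2ry12* in the cortex reached from -0.26 to -0.10, and *Gpr34* in the hippocampus from -0.23 to -0.067. With fewer libraries the tests had fewer degrees of freedom, and other causes were not tested.

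Whether the library numbers pair the samples is not known, and groups of 3 libraries cannot settle it. Deviations of same-numbered libraries from their group means correlated across genes at -0.36 to 0.15. Between cortex and hippocampus, where a mouse could give both, libraries numbered 3 correlated at 0.15 in Con and 0.13 in IR. Those numbered 1 and 2 lay between -0.13 and 0.026. With the number as a block, the interaction had 1 of the 9 genes at an unadjusted p under 0.05 in place of 0, *Csf1r* in the hippocampus had an adjusted p of 0.144, *Cx3cl1* and *Trem2* in the cortex 0.0539 and 0.0857, and no other call changed. In a single fit of all 12 libraries these 3 were at 0.0748, 0.0870 and 0.248. Without a filter, *Cx3cl1* and *Trem2* in the cortex were at 0.0557 and 0.0891 and *Trem2* over both tissues at 0.0697. Without trend or robust prior they were at 0.0779, 0.0683 and 0.0531. Over all genes tested, those with an adjusted p under 0.05 numbered 102 in the cortex (24 without a filter, 22 without trend or robust prior, 16 to 78 with 1 library left out), 4 in the hippocampus (2 at a minimum of 1 FPKM throughout, 1 with the block, 74 in a single fit, 0 to 880 with 1 library left out), 178 over both tissues (88 without a filter, 100 without trend or robust prior, 15 to 335) and 12 for the interaction (7 without a filter, 19 at a minimum of 1 FPKM, 0 without trend or robust prior, 15 with a pseudocount of 0.1, 0 to 480). The counts of 880, 335 and 480 came without Con 3 of the hippocampus. Groups of 3 libraries and FPKM without counts limit what can be detected.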
